A study of Homo sapiens and Homo sapiens
Mus musculus and Mus musculus with 200 samples.

Results

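TWIST1 occupied 1565 places in human cranial neural crest cells without ALX4 at which no TWIST1 peak was listed in cells that keep ALX4. These sites were selected on the TWIST1 peak lists themselves. A member is a TWIST1 peak of the line ALX1FV ALX4- (0 h, replicate 1) that overlaps a peak of replicate 2 and overlaps no peak of 7 other TWIST1 lists. Those 7 excluded lists are WT at 0 h and at 3 h, TWIST1FV at 0 h (2 replicates each) and 1 separate library of unedited cells. Of the 52890 peaks in replicate 1, 36631 were found in both replicates, and the 1565 members make up 4.27% of these. Where members are set beside other sites of the same 36631, fully shared sites are the 18736 overlapped by all 7 excluded lists, partly shared sites the 12963 overlapped by 3 to 6 of them, and rarely shared sites the 3367 overlapped by 1 or 2.

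The cranial neural crest cells came from H9, a human embryonic stem cell line, and WT is unedited. In ALX1FV, TWIST1FV, PRRX1FV and MSX1FNV the named factor carries a degradable tag, through which dTAGV-1 at 500 nM removes it, and a V5 epitope. WT cells were also given dTAGV-1. ALX1FV ALX4- carries the same tag on ALX1 and a knockout of ALX4. It was represented by 2 clones, 1 per replicate, as were ALX1FV and PRRX1FV, while TWIST1FV is 1 clone and both MSX1FNV replicates carry the same clone label. TWIST1 was profiled with 1 antibody in WT, TWIST1FV and ALX1FV ALX4-, but not in ALX1FV cells that keep ALX4. For TWIST1 occupancy, loss of ALX4, the tag on ALX1 and the clones therefore cannot be told apart. WT and TWIST1FV libraries also contained mouse O9-1 chromatin as a spike-in and those of ALX1FV ALX4- did not. That ALX4 is absent rests on the genotype label, since no file used here measures it. H3K27ac, a histone mark of active enhancers and promoters, was counted in all 6 lines over 213151 merged ATAC-seq peaks (called ATAC rows here) at 0, 3 and 24 h of dTAGV-1 with 2 libraries each. HEK293, a human embryonic kidney line, was harvested 24 h after transfection with TWIST1 or its variants, with or without ALX4. RS4;11, a human lymphoblast line, gave 1 TWIST1 list.

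TWIST1 is a basic helix-loop-helix factor of mesenchyme and neural crest that binds DNA as a dimer at the E-box. ALX4 belongs to the aristaless-like homeodomain factors, which act in the frontonasal part of the face and bind sequences with a TAAT core. TWIST1 and homeodomain factors can occupy DNA together at a composite sequence, in which an E-box and a homeodomain site stand at a fixed distance. TWIST1 can also occupy a double E-box, in which 2 E-boxes stand side by side.

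Sequences of these 2 paired kinds are shown because their shares differed between members and fully shared sites, in opposite directions. The search covered both strands from 100 bp before to 100 bp after each summit. For the E-box it took the letters CAGATG, whose other strand reads CATCTG. It also took the palindrome CAGCTG and, as a further E-box, the palindrome CATATG. For the homeodomain site it took the palindrome TAATTA and, as a further site, the letters TAATTG, whose other strand reads CAATTA. The composite motif is an E-box and a homeodomain site 4 bp apart in any order and orientation. The double E-box is a pair of E-boxes 5 bp apart, and the same E-boxes are counted in the E-box share. The first 6 lines show double E-boxes, the next 3 the composite motif, and the last 2 the single E-box of the members with the highest peaks, all on the + strand of hg38. Capitals mark the pair or the single E-box for which a line is shown, the last bases of the MAP1LC3B2 line are a further E-box in lower case, and each stretch is named for the protein-coding gene with the nearest start.
MAP1LC3B2: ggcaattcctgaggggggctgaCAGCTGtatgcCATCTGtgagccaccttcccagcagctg
PHTF1: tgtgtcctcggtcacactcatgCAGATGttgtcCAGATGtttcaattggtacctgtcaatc
SH3RF3: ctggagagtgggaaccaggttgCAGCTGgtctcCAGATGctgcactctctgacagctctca
CRB1: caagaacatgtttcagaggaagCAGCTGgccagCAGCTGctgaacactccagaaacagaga
NTPCR: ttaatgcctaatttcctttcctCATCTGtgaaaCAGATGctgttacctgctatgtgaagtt
USP47: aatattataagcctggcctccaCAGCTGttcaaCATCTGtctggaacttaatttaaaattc
MECOM: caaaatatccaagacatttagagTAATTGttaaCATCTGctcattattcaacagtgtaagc
PRPS2: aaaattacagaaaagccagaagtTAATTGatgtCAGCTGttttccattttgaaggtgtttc
EPHA5: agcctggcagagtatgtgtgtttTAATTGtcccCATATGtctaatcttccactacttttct
ID2: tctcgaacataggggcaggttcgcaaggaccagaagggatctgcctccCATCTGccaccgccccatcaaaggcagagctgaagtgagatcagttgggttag
ADO: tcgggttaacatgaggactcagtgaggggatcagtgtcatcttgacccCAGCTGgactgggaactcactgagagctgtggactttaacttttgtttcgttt
The double E-boxes lie at chr12:116494443-116494503 (MAP1LC3B2), chr1:113641940-113642000 (PHTF1), chr2:109080475-109080535 (SH3RF3), chr1:197306144-197306204 (CRB1), chr1:232965385-232965445 (NTPCR) and chr11:11940611-11940671 (USP47). The composite motifs lie at chr3:169287953-169288013 (MECOM), chrX:12824321-12824381 (PRPS2) and chr4:66052122-66052182 (EPHA5). In all 3 of these the homeodomain site reads TAATTG and stands before the E-box. The single E-boxes lie at chr2:8597703-8597803 (ID2) and chr10:62760398-62760498 (ADO). The window of the ID2 member also holds a homeodomain site, outside the stretch printed, and that of the ADO member holds none.

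An E-box was common in all 4 classes of sites, and homeodomain sites were less frequent at members than at partly and fully shared sites. An E-box stood in the window of 1225 members, 78.3% (76.2 to 80.2, Wilson 95% interval), against 24.8% of the members' flanking windows 1000 bp to either side. The share was 74.7% at rarely shared, 71.2% at partly shared and 74.0% at fully shared sites. The sequence CAGATG alone was held by 59.0% of members, 52.9% of rarely shared, 46.1% of partly shared and 50.0% of fully shared sites. A homeodomain site was held by 178 members, 11.4% (9.89 to 13), and by 14.8% of their flanking windows, so that members held it no more often than the DNA around them. Fully shared sites held it at 25.2% against 15.9% of their flanking windows, and partly shared sites at 19.9%. Differences in motif shares between classes were not tested, and the intervals cover counting error only.

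Both paired motifs differed in frequency between members and fully shared sites, in opposite directions. The composite motif was found in 4 members, 0.256% (0.0994 to 0.655), and in 0 of 3130 flanking windows, which allows a share of up to 0.0958%. It was found in 1.34% of rarely shared, 2.89% of partly shared and 3.28% of fully shared sites. The double E-box was found in 83 members, 5.30% (4.30 to 6.53), against 0.0958% of flanking windows. Rarely shared sites held it at 5.55%, so it does not set members apart from them, while partly shared sites held it at 1.45% and fully shared sites at 1.56%. Among gaps of 0 to 20 bp between 2 E-boxes in members, the next most frequent was 16 bp, in 15 members. Members had lower peaks than fully shared sites, so the shares were also taken within the members' middle range of heights, a choice made after the data were seen. There the composite motif was held by 2 of 785 members, 0.255% (0.0699 to 0.924), and by 1.81% of rarely shared sites. Fully shared sites held it at 0.867% (0.542 to 1.38), an interval that overlaps that of members. The double E-box was held by 4.59% of members, 2.64% of rarely shared and 0.204% of fully shared sites in this range. Median GC content of the window was 50.2% in members, the same in rarely shared sites and 46.3% in fully shared sites.

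**Figure D1:**
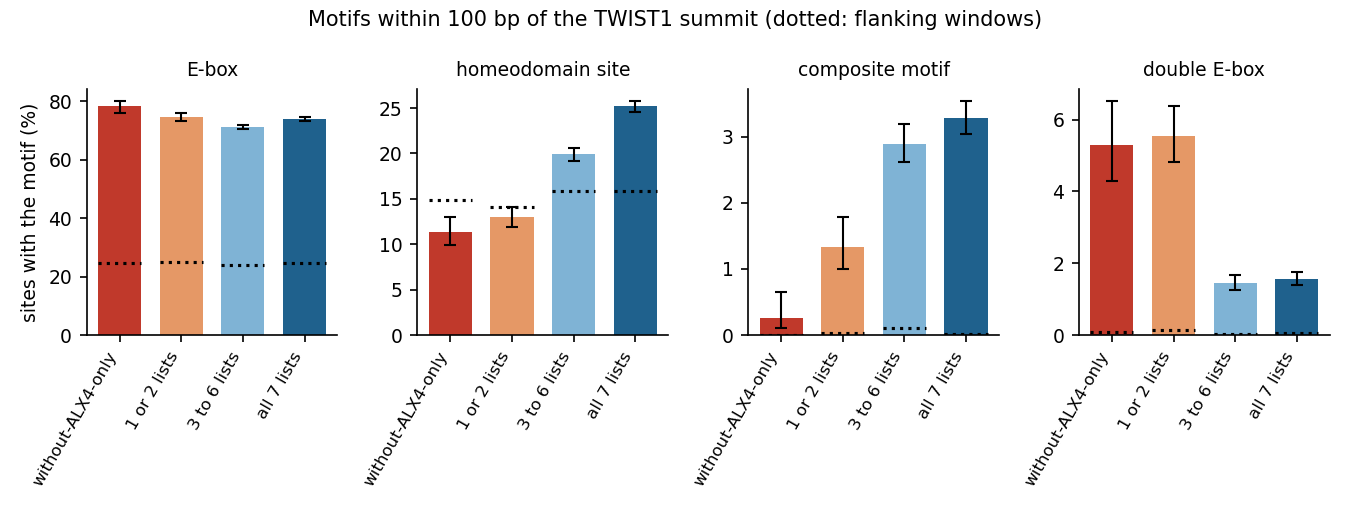
Share of sites (%) whose window of 100 bp to either side of the summit holds each motif, for members (without-ALX4-only, 1565 sites) and for sites shared with 1 or 2, 3 to 6 or all 7 excluded lists, with Wilson 95% intervals and the share in flanking windows as dotted lines. E-boxes stand at 71.2% to 78.3% in all 4 classes, whereas the composite motif runs from 0.256% in members to 3.28% in fully shared sites and the double E-box from 5.30% to 1.56%.

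The rule used the peak calls, so heights are given as description, with no test. The median −log10 q of members was 8.06 in replicate 1 and 6.41 in replicate 2, against 50.6 and 40.2 at fully shared sites. Just outside the rule, the 1779 sites overlapped by a single excluded list had medians of 10.0 and 8.04, and 993 of the 36631 sites were shared with the separate unedited library alone. The lowest member values were 1.32 and 1.35, and 54 members reached 20 in both replicates. An excluded TWIST1 peak lay within 1000 bp of 225 members (14.4%) and within 100 bp of 16. The same rule with TWIST1FV at 0 h in place of ALX1FV ALX4- found 3 of 21804 sites. The TWIST1FV lists were shorter, with 33479 and 25034 peaks against 52890 and 43274 in ALX1FV ALX4-. A shorter list leaves fewer sites of its own, so the 3 sites are no match for the 1565 members. Of 42318 sites of WT at 0 h, 2057 overlapped no list of TWIST1FV at 0 h, ALX1FV ALX4- or the separate unedited library. That count excluded 5 lists and not WT at 3 h, so it is no match for the rule of 7 lists.

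Members lay mostly in introns and between genes. Introns held 814 members (52.0%), intergenic DNA 428 (27.3%), promoters (within 1000 bp of a transcript start) 246 (15.7%) and exons 77 (4.92%). Fully shared sites were at promoters in 14.5% and rarely shared sites in 24.0%. An ATAC row overlapped 1266 members (80.9%) and 98.5% of fully shared sites. The 299 members without an ATAC row held a double E-box in 9.70% and an E-box in 86.3%, against 4.27% and 76.4% of those with one. AP2a (TFAP2A), a factor of neural crest enhancers, was listed at 11.5% of members and 36.9% of fully shared sites in unedited cells. V5 lists, which mark tagged ALX1, overlapped 1 member in 1 of the 2 libraries of ALX1FV ALX4- and no member in the other or in ALX1FV. The V5 lists were short, with 376 to 1389 peaks.

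The nearest protein-coding genes were 1312 in number and 1111 of them had a single member. Of these genes, 946 were also nearest to a fully shared site, so most members lay near genes that have a TWIST1 site in all lists. The share of all protein-coding genes nearest to a fully shared site was not computed. The count therefore cannot show whether genes near members differ in this from other genes. Another 41 genes had 3 or more members, led by BCOR, BCR and ZNF608 with 5 each. The members with the highest peaks in both replicates were nearest to ID2, an inhibitor of basic helix-loop-helix factors, then ADO, SLC7A14, CNBD1, MAP1LC3B2, PCOLCE2, GNA14, ANKRD44, DENND1A and PHTF1. The ID2 member (chr2:8597474-8598156) is intergenic, 81.0 kb before the gene's start, and reached −log10 q values of 77.8 and 58.7. The ADO member (chr10:62760053-62760770) lies in an intron 44.3 kb before the start of ADO, a thiol dioxygenase, at 42.8 and 40.1. All 10 held an E-box, and 3 of them held a double E-box. Distance to a start says nothing of which gene a site acts on.

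RS4;11 cells gave a list of TWIST1 peaks that played no part in the choice of members. It overlapped 509 of the 1565 members, 32.5% (30.2 to 34.9, Wilson 95% interval), and 38.0% of rarely shared, 29.9% of partly shared and 21.5% of fully shared sites. This is 1 list of 70826 peaks with no replicate. Members within it were at promoters in 26.9% and held a homeodomain site in 5.89%, against 10.3% and 14.0% of the members outside it. An E-box was held by 76.6% of members within it and 79.1% of those outside. No member within it held the composite motif. Limiting the list to its 10000 strongest peaks left 8.24% of members overlapped.

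In HEK293 cells, each of 3 pairs of TWIST1 lists overlapped fewer members with ALX4 than without it, a difference within the spread between replicates. Without ALX4, the 3 lists of V5-tagged TWIST1(WT) overlapped 17.8%, 14.1% and 25.8% of members. With ALX4, the same-numbered lists overlapped 7.60%, 10.9% and 18.2%. Each was below its same-numbered partner, but the 2 groups overlapped. The mean difference was −7.01 percentage points (19.3 ± 5.98 to 12.2 ± 5.43, SD, n = 3 each), with an exact two-sided permutation p of 0.3 and 0.4 after Benjamini-Hochberg adjustment over 4 tests. The lists differ in length (22465 to 65005 peaks), so the 10000 strongest peaks of each were also compared. On that scale 8.03% ± 0.0976 of members were overlapped without ALX4 and 2.77% ± 0.0976 with it (SD, n = 3), groups that did not overlap. The exact permutation p of 0.1 is the smallest that 3 against 3 can give. The share of each list that fell on a member was 0.874% without ALX4 and 0.419% with it, also at the smallest exact p of 0.1. A control list of HEK293 cells given an empty plasmid (pUC19) overlapped 0.319% of members.

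Fully shared sites were overlapped at 18.0% ± 4.31 without ALX4 and 32.9% ± 6.12 with it (SD, n = 3) in the same lists, at the smallest exact permutation p of 0.1. The difference in change between members and fully shared sites was −21.9 percentage points, negative in 3 of 3 replicates, with an exact permutation p of 0.1 (0.2 adjusted over the same 4 tests). Between members and partly shared sites it was −10.2, also at p = 0.1 in the exact permutation test. Between members and rarely shared sites it was −0.0675 with an exact permutation p of 1.0, so the change at members was not distinguished from that at rarely shared sites on full lists. With the 10000 strongest peaks of each list, the same differences were −13.0 against fully shared, −2.06 against partly shared and 1.95 against rarely shared sites, the last of opposite sign, each at the smallest exact permutation p of 0.1. Of the members, 81 (5.18%) were in at least 2 of the 3 lists without ALX4 and in none with it, and 21 (1.34%) showed the reverse. Among fully shared sites these shares were 1.43% and 13.5%. Among rarely shared sites, 183 of 3367 (5.44%) showed the first pattern and 74 the reverse. The first pattern therefore does not set members apart from rarely shared sites. None of the 6 lists held 1022 members (65.3%), and 590 (37.7%) were in neither the RS4;11 list nor any of 40 HEK293 lists of TWIST1 or a variant.

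Other HEK293 constructs had 1 list each. TWIST1 from a pCAG plasmid overlapped 25.9% of members alone and 15.3% with ALX4, and pcDNA3.1 V5-TWIST1 read with the TWIST1 antibody 9.90% and 3.64%. Partners were compared by the share of each list on a member, which was 1.01% for TWIST1 alone, 0.456% with ALX4, 0.415% with PRRX1a, 0.468% with PRRX1b, 0.761% with MSX1 and 0.883% with PHOX2A. Each partner is a homeodomain factor and each list had no replicate. In 13 variants, parts of TWIST1 were replaced or changed. The variant L138F went from 28.9% to 15.1% with ALX4, L138Y from 25.8% to 14.2% and NEUROD1L from 15.3% to 4.54%, while TAL1loop went from 9.01% to 19.4%. Over all 13 the mean change was −0.595 percentage points, with 5 of 13 lower and an exact sign-flip permutation p of 0.781. The NEUROD1L list also shortened from 26878 to 8559 peaks with ALX4.

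**Figure D2:**
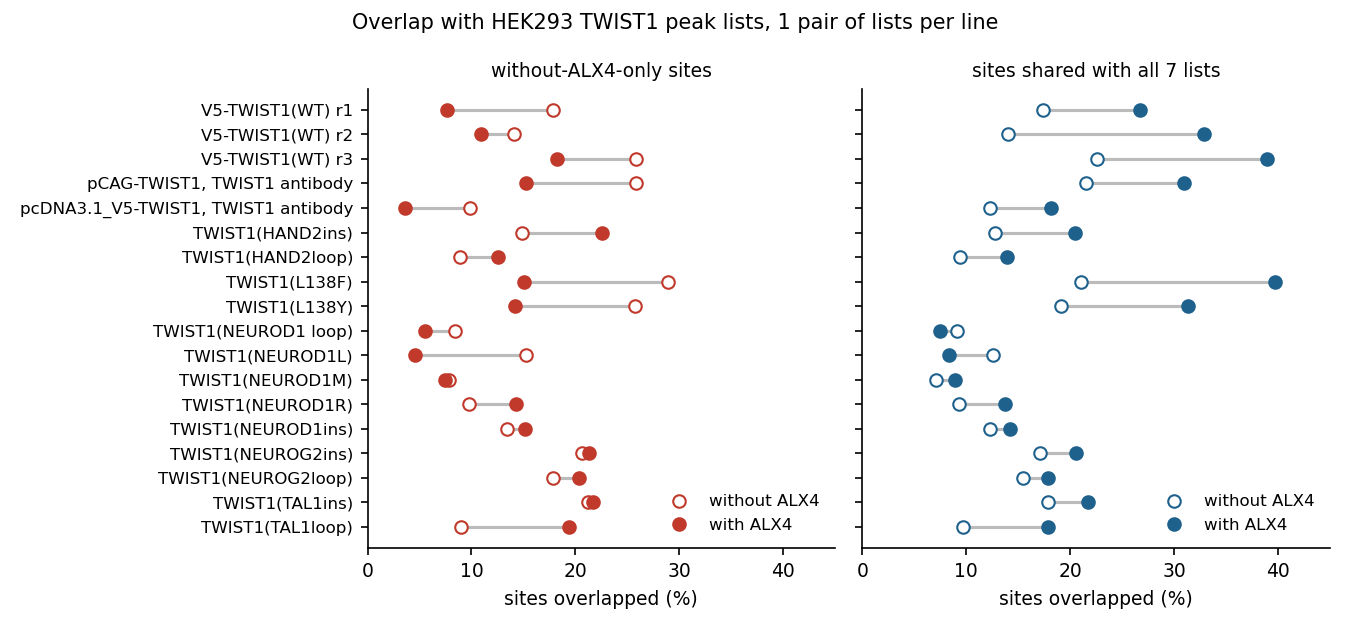
Share of sites (%) overlapped by each HEK293 list of TWIST1 or a variant without ALX4 (open) and with it (filled), for the 1565 members (left) and the 18736 fully shared sites (right). In the 3 TWIST1(WT) pairs the members move down, from 14.1% to 25.8% without ALX4 to 7.60% to 18.2% with it, and the fully shared sites move up.

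The H3K27ac libraries had total counts from 5137169 to 9173063. Of 12 start sites of cranial neural crest markers, all 12 had an ATAC row, and their median log2 CPM (counts scaled to library size, on the log2 scale with a prior count of 2) was 6.04 to 6.37 in the 6 lines. Within this list PAX3 was lower in ALX1FV ALX4- than in ALX1FV by 1.76 and PRRX1 higher by 0.342 on the log2 scale. Lists of pluripotent (7 genes), neural progenitor (7), mesoderm and endothelium (8), endoderm and epithelium (7) and blood (7) markers had medians of at most 2.08 in any line, and LIN28A reached 7.39 in ALX1FV ALX4- and 6.87 in ALX1FV. Other markers in these lists differed between the same lines by 1.89 (GATA4), 1.24 (CDH1), −0.93 (KDR), −1.1 (EPCAM) and −2.76 (PAX5) on the log2 scale, as ALX1FV ALX4- minus ALX1FV. GATA4 stood at −1.88 in ALX1FV, the lowest level of any marker, and at 0.017 in ALX1FV ALX4-. The median difference was −0.11 for mesoderm and endothelium, −0.358 for endoderm and epithelium and −0.25 for blood. The part of these differences in the results below was not tested. In bulk chromatin, more cells with the mark and more of the mark per cell cannot be told apart.

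H3K27ac at members was higher in ALX1FV ALX4- than in all other lines at 0 h. The 1293 ATAC rows overlapped by a member took 0.845% ± 0.0151 of all counts in ALX1FV ALX4- (SD, n = 2), 0.583% ± 0.0221 in ALX1FV, 0.636% ± 0.0462 in MSX1FNV, 0.631% ± 0.0161 in PRRX1FV, 0.507% ± 0.0156 in TWIST1FV and 0.481% ± 0.00354 in WT. The ALX1FV ALX4- share was thus 1.45 times that of ALX1FV and 1.76 times that of WT. Among the other lines, the libraries of MSX1FNV and PRRX1FV overlapped, and those of ALX1FV, TWIST1FV and WT followed below in this order without overlap. Over all times, the median log2 CPM of these rows was 1.71 to 1.90 in the 6 libraries of ALX1FV ALX4- and 0.70 to 1.27 in the 30 libraries of the other lines, with no overlap. The rows were shallow, with a median count per row of 10 to 28 in a library. Of the 1293 rows, 1259 overlapped no TWIST1 peak of the excluded lists.

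**Figure D3:**
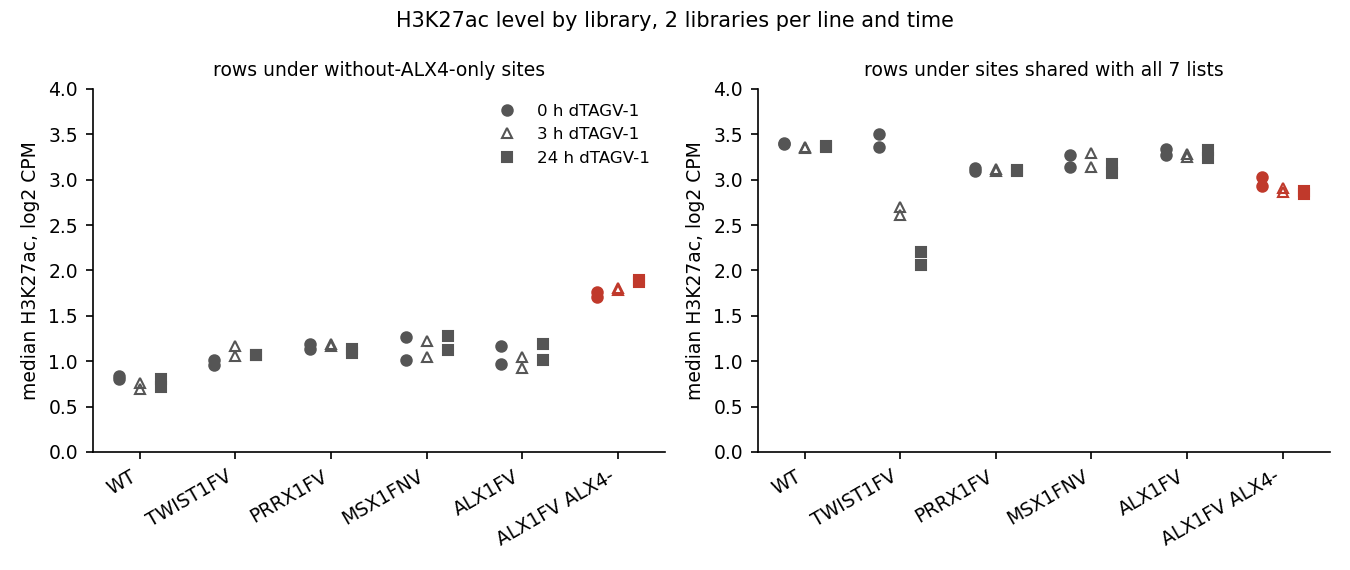
Median H3K27ac (log2 CPM) of ATAC rows in each of 36 libraries, 2 per line and time, for rows under members (left) and under fully shared sites (right). The 6 ALX1FV ALX4- libraries lie at 1.71 to 1.90 under members, above the other 30, and under fully shared sites its 0 h libraries, at 2.93 and 3.03, are the lowest of that time.

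Row by row, 1157 of the 1293 member rows had counts high enough to be tested at 0 h (edgeR quasi-likelihood test on 12 libraries, false discovery rate 0.05 by Benjamini-Hochberg). Against ALX1FV, 95 rows were higher in ALX1FV ALX4- and 1 was lower, at a median log2 fold change of 0.64 with 958 rows above 0. This is 8.21% of member rows higher, where over all 146669 tested rows 0.857% were higher and 2.94% lower, at a median near 0. Rows under fully shared sites went the other way, with 267 higher and 2816 lower of 20375 and a median of −0.29. Rows under rarely shared sites lay between, with 147 higher and 4 lower of 2725 and a median of 0.37. Without any filter on counts, 81 of 1293 member rows were higher (0.538% of all rows), at a median of 0.62. Rows can pass the filter through ALX1FV ALX4- itself, so the 1072 that passed in the other 5 lines alone were also counted, after the data were seen: 91 were higher and 1 lower, at a median of 0.58.

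Against the other lines, which share the ALX1FV ALX4- libraries with that comparison, the members differed in the same direction. Against WT, 290 member rows were higher and 2 lower, at a median of 0.97, where 3.83% of all rows were higher and 6.5% lower. Against TWIST1FV, 227 were higher and 5 lower, at a median of 0.77 (all rows 3.23% and 6.1%). Against PRRX1FV, 67 were higher and 1 lower, at a median of 0.50 (all rows 0.873% and 1.75%). Against MSX1FNV, 59 were higher and 1 lower, at a median of 0.52 (all rows 0.796% and 1.8%). ALX1FV, which keeps ALX4, itself differed from WT in 19 member rows higher and 1 lower at a median of 0.26 (all rows 0.305% and 0.222%). Among the 1072 member rows that passed the filter in the other 5 lines alone, 283 were higher and 2 lower against WT (median 0.91). Against TWIST1FV these were 223 and 5 (0.71), against PRRX1FV 65 and 1 (0.47) and against MSX1FNV 56 and 1 (0.47). Both libraries of ALX1FV ALX4- lay above all 10 others in 330 of 1157 member rows (28.5%) and in 5.3% of all tested rows. That count keeps 85 member rows that passed only with ALX1FV ALX4- and was not made without them. WT and TWIST1FV differ from ALX1FV ALX4- in spike-in as well, while ALX1FV, PRRX1FV and MSX1FNV do not.

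The number of rows called depended on single libraries. Against ALX1FV, the count of called rows was 25 without ALX1FV ALX4- replicate 1, 44 without its replicate 2 and 51 without ALX1FV replicate 2, with medians from 0.58 to 0.69 in all leave-one-out fits of that comparison. Such medians ran from 0.46 to 0.71 against MSX1FNV, 0.48 to 0.57 against PRRX1FV, 0.74 to 0.87 against TWIST1FV and 0.92 to 0.96 against WT. Without ALX1FV ALX4- replicate 1 and replicate 2, the counts were 16 and 29 against PRRX1FV and 12 and 31 against MSX1FNV. Without replicate 1 they were 179 against WT and 128 against TWIST1FV. Leaving out replicate 1 and replicate 2 of the other line gave 15 and 26 against PRRX1FV, 12 and 33 against MSX1FNV, 163 and 181 against WT and 135 and 151 against TWIST1FV. A fit of the 4 libraries alone called 35 of 1000 rows at a median of 0.65. Scaling by library size alone moved the median of all tested rows to 0.18 against WT and 0.17 against TWIST1FV, where the members stood at 1.13 and 0.93. On that scaling, all rows split into 7820 higher and 7098 lower against WT and 6806 and 6555 against TWIST1FV, and the members into 346 and 2 and into 297 and 4.

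**Figure D4:**
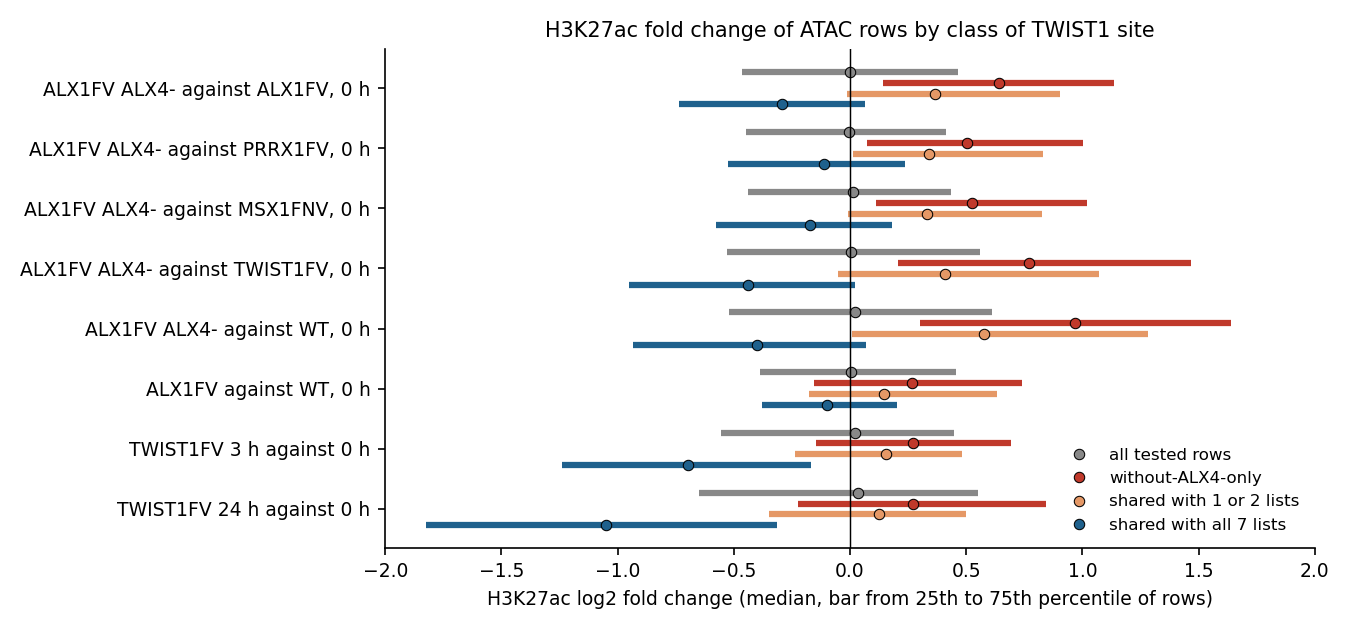
Median log2 fold change of H3K27ac, with a bar from the 25th to the 75th percentile of rows, for all tested rows and for rows under members (without-ALX4-only), rarely shared and fully shared sites, in 6 comparisons between lines at 0 h and 2 between times in TWIST1FV. Member rows stand to the right of all rows in each comparison, from 0.26 (ALX1FV against WT) to 0.97 (ALX1FV ALX4- against WT), and fully shared sites to the left.

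Within the members, H3K27ac is described for groups of rows by place, RS4;11 list, motif and height. Over all member rows 8.21% were higher against ALX1FV, and over all rows 0.857%. Against ALX1FV, 14 of 216 rows at promoters were higher, at a median log2 fold change of 0.27, and 81 of 941 rows elsewhere at 0.70. Rows of members with an E-box had 71 of 868 higher (median 0.69) and rows of those without 24 of 289 (0.42). Rows of members in the RS4;11 list had 22 of 378 higher (0.43) and rows of the others 73 of 779 (0.72). Rows of members with a homeodomain site had 16 of 117 higher (13.7%, median 0.88) and rows of those without 79 of 1040 (7.6%, 0.61). Against WT these shares were 23.1% and 25.3%, in the opposite order. Rows of members with a double E-box had 1 of 40 higher (0.78). Rows under higher TWIST1 peaks, split at the members' median, had 67 of 572 higher (0.85) and rows under lower peaks 28 of 585 (0.47). No test was made of the differences between these groups of rows.

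PDE2A, which encodes a cyclic nucleotide phosphodiesterase, had the lowest adjusted p among the 6 named rows that were higher against ALX1FV. Its member at chr11:72656879-72657855 lies 611 bp from a transcript start, and the row held 21.9 and 17.2 CPM in ALX1FV ALX4-, 3.02 and 1.76 in ALX1FV and 1.02 and 0.624 in WT. PRRX1FV, MSX1FNV and TWIST1FV held 2.21 to 3.52 CPM, so both ALX1FV ALX4- libraries stood above the 10 others. The log2 fold change against ALX1FV was 3.04 ± 0.391 (SE), with an edgeR adjusted p of 1.98e-06. The 2 other members of PDE2A, both intronic, had rows at 1.45 ± 0.705 and 2.01 ± 0.807 (SE) that did not pass the test.

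Other rows rose against ALX1FV at sites far from the nearest start. At DIAPH2, an actin regulator of the formin family, the intergenic member chrX:96383044-96383405 had 9.57 and 5.84 CPM in ALX1FV ALX4- against 0.672 and 0.88 in ALX1FV and 1.27 and 1.25 in WT. Its log2 fold change was 3.28 ± 0.56 (SE), with an edgeR adjusted p of 0.000189. In FAXC, an intronic member (chr6:99306141-99306664) rose by 3.27 ± 0.558 (SE, edgeR adjusted p 0.000188). A member within an ASTN2 intron, nearest to TRIM32 (chr9:116844403-116844997), rose by 2.63 ± 0.531 (SE, edgeR adjusted p 0.00155). Near PCDH19, a protocadherin gene, the row of an intergenic member (chrX:99906286-99906678) held 10.3 and 3.89 CPM against 2.01 and 0.587 in ALX1FV, at 2.47 ± 0.664 (SE, edgeR adjusted p 0.0238). In these the ALX1FV ALX4- libraries were above those of ALX1FV without overlap. The 1 member row that fell was nearest to TRABD2B (chr1:47724529-47725220), a Wnt-inactivating protease gene, at 11.9 and 13.9 CPM against 18.5 and 24.7 in ALX1FV. Its log2 fold change was −0.749 ± 0.223 (SE), with an edgeR adjusted p of 0.049. That row also overlaps a TWIST1 peak of an excluded list. No member row was called lower with library-size scaling, without a filter or with a replicate block.

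The longest run of members with neighbours within 50000 bp was at METAP1D, DLX1 and DLX2 and was chosen after its values were seen. DLX1 and DLX2 are homeodomain genes that pattern the branchial arches. It held 6 members in chr2:172013118-172097954, and only 10 of 1439 runs held 3 or more. Their −log10 q in the 2 replicates ran from 1.32 and 3.11 (DLX1) to 24.2 and 13.3 (METAP1D, chr2:172070835-172071304). The DLX2 member, at 3.71 and 5.23, was under the members' medians of 8.06 and 6.41. The member 5.08 kb beyond the DLX2 start (chr2:172097290-172097954) had a row at 32.1 and 36.4 CPM in ALX1FV ALX4-. The same row held 9.4 and 3.23 CPM in ALX1FV, 2.11 and 6.77 in MSX1FNV, 4.79 and 6.61 in PRRX1FV, 2.16 and 2.7 in TWIST1FV and 0.508 and 3.12 in WT. Both ALX1FV ALX4- libraries stood above all others, the log2 fold change against ALX1FV was 2.46 ± 0.413 (SE), and the edgeR adjusted p was 0.000151. All 7 rows of the run were higher in ALX1FV ALX4- than in ALX1FV, from 0.852 to 2.63 on the log2 scale, and 4 of the 7 passed the edgeR test. The row near DLX1 did not pass, at 1.51 ± 0.697 (SE, edgeR adjusted p 0.309), nor did those of the member at the METAP1D start (0.852 ± 0.304 and 1.02 ± 0.315, SE). The DLX2 member held no E-box of the kinds searched and was listed in all 3 HEK293 lists of TWIST1(WT) without ALX4 and 1 with it.

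**Figure D5:**
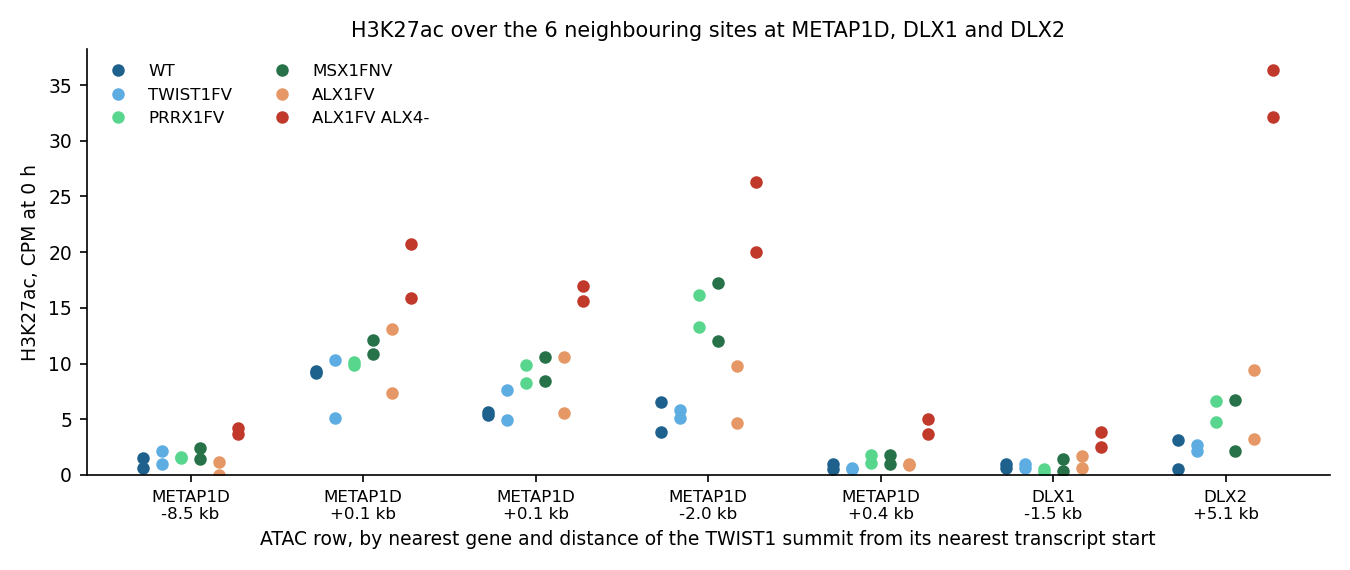
H3K27ac (CPM, 2 libraries per line at 0 h) of the 7 ATAC rows under 6 neighbouring members, labelled by the nearest gene and the distance of the TWIST1 summit from the nearest transcript start. The red points of ALX1FV ALX4- are the highest at every row, and at DLX2 they stand at 32.1 and 36.4 CPM against at most 9.4 in any other library.

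Members near genes of neural crest and signalling lists were few, as were sites of the other classes. The crest and face regulators were nearest to 1.09% of members, 1.01% of rarely shared, 1.17% of partly shared and 1.61% of fully shared sites. In the same order, shares were 0.639%, 0.564%, 0.625% and 0.689% for the BMP and TGF-beta pathway. For the WNT pathway they were 0.256%, 0.535%, 0.517% and 0.731%. These differences were not tested. Called rows near listed genes are to be read against 8.21% of all member rows and 0.857% of all rows higher. Regulators of neural crest and face (45 genes) were nearest to 17 members at 13 genes, and of 14 tested rows 2 rose against ALX1FV and none fell, at DLX2 and NR2F2, a nuclear receptor gene (median 0.58). Near genes of the BMP and TGF-beta pathway (31 genes) there were 10 members, and of 8 tested rows 1 rose and none fell. That row was at ID2, at 6.95 and 8.34 CPM in ALX1FV ALX4-, 3.69 and 1.76 in ALX1FV and 1.52 and 2.50 in WT, without overlap (log2 fold change 1.5 ± 0.44, SE, edgeR adjusted p 0.0456). Among collagen and matrix genes (30), 1 of 4 tested rows rose, at COL4A2 (chr13:110392524-110393090, intron), a basement membrane collagen. It held 12.4 and 11.7 CPM against 4.03 and 2.64 in ALX1FV and 2.03 and 0.937 in WT, at 1.86 ± 0.42 (SE, edgeR adjusted p 0.00536). None of 3 WNT, 5 FGF, PDGF and hedgehog, and 4 neuronal rows passed. A HOX gene was nearest to 0 members, 0 rarely shared, 1 partly shared and 2 fully shared sites. The highest members of these lists included those nearest HHIP and BMP7, which had no ATAC row, and PDGFC, RSPO2, SOX9, MSX1, PAX7 and FGFR3, whose rows ran from −0.561 (FGFR3) to 1.8 (RSPO2) and did not pass. COL5A2 had a member with no ATAC row.

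Of the 10 highest members, only the ID2 row was called against ALX1FV, where 8.21% of all member rows and 0.857% of all rows were higher. Calls against WT are to be read against 25.1% of all member rows and 3.83% of all rows higher. Against WT, 6 of their 10 tested rows were higher by the edgeR test, at ID2, ADO (both rows), PCOLCE2, ANKRD44 and DENND1A. The second ADO row held 11.2 and 9.32 CPM against 3.69 and 4.99 in ALX1FV and 1.27 and 2.19 in WT, at 1.23 ± 0.45 against ALX1FV (SE, edgeR adjusted p 0.142) and 2.58 ± 0.5 against WT (SE, edgeR adjusted p 0.00035). PCOLCE2, whose product aids procollagen processing, stood at 1.84 ± 0.566 against ALX1FV (SE, edgeR adjusted p 0.0607). Among the 4 members with the composite motif, MECOM alone had a tested row, at 0.7 ± 0.552 (SE, edgeR adjusted p 0.662). The 5 highest members found both in RS4;11 and in all 3 HEK293 lists with ALX4 were nearest to PPIAL4G, PPARGC1B, GSK3A, RAB11A and FER. Their rows ran from −0.243 (PPIAL4G) to 1.26 (FER) against ALX1FV and none was called, while PPARGC1B (1.7 ± 0.482, SE, edgeR adjusted p 0.0164) and RAB11A (1.67 ± 0.452, SE, edgeR adjusted p 0.0111) were higher against WT.

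After removal of TWIST1 itself, more member rows were called higher than lower in H3K27ac. In TWIST1FV cells, where these sites have no TWIST1 peak at 0 h by the rule, 29 member rows were higher after 3 h of dTAGV-1 and none lower among 947 tested, at a median log2 fold change of 0.27. Over all rows 1.01% were higher and 4.28% lower. After 24 h, 92 member rows were higher and 8 lower at a median of 0.27, where 4.28% of all rows were higher and 9.49% lower. Rows under fully shared sites fell, with 88 higher and 4431 lower at 3 h (median −0.70) and 314 higher and 8773 lower at 24 h (median −1.05). Rows under rarely shared sites moved as members did, with 56 higher and 5 lower of 2316 at 3 h (median 0.15). At 24 h these had 157 higher and 29 lower (median 0.13), so the direction is not particular to members. Without TWIST1FV 0 h replicate 1 the calls at members were 11 at 3 h and 62 at 24 h, and without its replicate 2 they were 14 and 66. Without TWIST1FV 24 h replicate 2 they were 64 at 24 h. Scaling by library size alone moved the median of all rows to 0.11 and 0.16 and that of the members to 0.35 and 0.39. Of the 95 rows higher in ALX1FV ALX4- than in ALX1FV, 86 were tested in TWIST1FV. At 24 h 20 of them (23.3%) were higher and 2 lower, where 9.71% of all tested member rows were higher. The same share was not computed for rows outside the members, so it cannot be called particular to members.

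After removal of ALX1, PRRX1 or MSX1 no member row passed the edgeR test that leaves clone out. In ALX1FV ALX4-, where dTAGV-1 removes ALX1, none of 1154 rows was called at 3 h (0.0% of all rows) or 24 h (0.0279%) by edgeR, with 63 and 103 at an unadjusted p under 0.05 and none called by DESeq2. Their medians were 0.07 and 0.15. With clone as a replicate block 1 row was called at 24 h, and 76 and 128 rows had an unadjusted edgeR p under 0.05. In ALX1FV none was called at 3 h (0.0%) or 24 h (0.0%), with 19 and 17 at an unadjusted p under 0.05 and none by DESeq2. With clone as a block none was called in ALX1FV either, but 40 and 45 rows had an unadjusted edgeR p under 0.05. MSX1FNV gave none at 3 h (0.00179% of all rows) or 24 h (0.00448%), with 22 and 22 at an unadjusted p under 0.05 and none by DESeq2. PRRX1FV gave none at 3 h (0.0%) or 24 h (0.000827%), with 44 and 38 at an unadjusted p under 0.05 and none by DESeq2. The clone block called none in PRRX1FV, with 50 and 42 at an unadjusted edgeR p under 0.05. WT cells given dTAGV-1 gave none at 3 h (0.0%) or 24 h (0.0%), with 20 and 27 at an unadjusted p under 0.05 and none by DESeq2. The TWIST1 lists of TWIST1FV at 3 h of dTAGV-1, with 835 and 739 peaks, overlapped no member. The rule had already excluded sites with a TWIST1FV peak at 0 h, so this absence is no separate result.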

How the data were processed

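Members, gene lists and tests were chosen with earlier results of these data known. Per the submitters' processing notes, Bowtie2 2.4.1, SAMtools 1.10, MACS2 2.2.7.1 and deepTools 3.5.0 were used on hg38 and mm39. The authors deposited 1 peak list per library, with a fold (ratio) of enrichment, −log10 p and q and a whole-number score per peak by the standard column order, and the read depth behind a list is unknown. The authors deposited unnormalised H3K27ac counts over merged ATAC-seq peaks in 1 table per line. Of counts of 20 or more, 76.7% to 81.5% per library were even, as when both mates of a pair are counted, which no source used here states. Counts were fitted as deposited, and if mates were counted they overstate the independent fragments per row. Heights only describe or rank peaks within a list. 5 mouse lists were not used.

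An overlap is at least 1 bp (bedtools 2.31.1). Sites were annotated with GENCODE 44, and the nearest gene is the protein-coding gene with the nearest transcript start. H3K27ac was fitted in edgeR 4.0.16, R 4.3.3 (filterByExpr, TMM factors, quasi-likelihood test, Benjamini-Hochberg over all tested rows), the 6 lines at 0 h in 1 fit and times within a line. All sequences were read from hg38. Named members were the 10 highest by the lower replicate, those with the composite motif, up to 6 called rows per direction with the largest change among rows above the median level, the highest members near listed genes, and the 5 highest in RS4;11 and all 3 HEK293 lists with ALX4, and some of these are not reported here. Peak-list replicates were compared by exact permutation tests. The scripts were tested on simulated data. Replicates in ALX1FV, ALX1FV ALX4- and PRRX1FV are clones, so a number marks the same clone at each time. Same-numbered libraries of a line deviated together at r = 0.305 to 0.317 in ALX1FV and 0.032 to 0.069 in ALX1FV ALX4-. Nothing says that the replicates of other lines were separate cultures, so p-values measure the spread between these samples. DESeq2 1.42.0, no filter, library-size scaling, a replicate block and leaving out each library were the alternatives.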

Additional observations from a re-analysis of the deposited data

Results flagged for a closer look

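Over 13 TWIST1 variants in HEK293 cells, the change in overlap when ALX4 was added differed between members and the 3 other classes of TWIST1 sites. The change at members was lower by 2.37 percentage points than at rarely shared sites (−2.37, exact sign-flip permutation p 0.000732, 0.00146 adjusted over 4 tests, lower in 12 of 13 variants). It was lower than at partly shared sites by −5.3 points in 13 of 13 variants, at an exact sign-flip permutation p of 0.000244, the smallest that 13 variants can give (0.000977 adjusted). It was lower than at fully shared sites by −5.46 points in 10 of 13 variants (exact sign-flip permutation p 0.0193, 0.0257 adjusted). At members alone the mean change was −0.595, and at rarely shared sites 1.78, at partly shared sites 4.70 and at fully shared sites 4.86. Each variant had 1 list per condition, and the variants share parts of their sequence.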

How the results depend on the processing

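The number of members was 855 where both replicates had to reach a −log10 q of 5, 3363 and 6650 where 1 replicate of ALX1FV ALX4- was left out, and 1577 to 2558 where 1 excluded list was left out, the highest without the separate unedited library. The RS4;11 share was 8.24% with the 10000 strongest peaks and 29.2% to 31.5% when 1 replicate was left out. The E-box share was 87.6% at a −log10 q of 5, 66.6% in windows of 50 bp to either side, 93.0% for any CANNTG, 82.2% in the middle height range (added after seeing the data) and 69.8% to 69.9% with 1 replicate left out. The homeodomain share was 6.33% in those narrower windows, and the composite share 0.506% to 0.722% with 1 replicate left out. The HEK293 TWIST1(WT) change ran from −3.73 to −9.99 with 1 list left out, and pairing by replicate number gave −7.01 at an exact sign-flip permutation p of 0.25. Called member rows in leave-one-out fits ran from 25 to 92 against ALX1FV, 163 to 319 against WT, 128 to 267 against TWIST1FV, 15 to 100 against PRRX1FV and 12 to 76 against MSX1FNV. They ran from 11 to 42 and from 62 to 122 at 3 h and 24 h in TWIST1FV, and from 0 to 1 at 24 h in ALX1FV ALX4-. Fits of the 4 libraries alone called 35 rows against ALX1FV, and DESeq2 called 44 against PRRX1FV. Without a filter 19 rows were called at 3 h in TWIST1FV. With the replicate block, 75 rows (71 higher, 4 lower) were called at 3 h and 153 (143 and 10) at 24 h in TWIST1FV, 1 clone whose same-numbered libraries deviated together at r = 0.11 to 0.183, and 1 at 24 h in ALX1FV ALX4-, and no other count moved by over 1.5 times. The causes were not tested, except that fits without a library hold fewer samples. Of 228 alternatives of H3K27ac counts, 199 stayed within 1.5 times. Counts of 10 to 28 per row limit what single rows can show.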
